A study of Mus musculus with 24 samples.

Results

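Proliferin is the name of a small group of near-identical secreted proteins of the prolactin family in mice. The group is described here by its 3 genes *Prl2c2*, *Prl2c3* and *Prl2c5*, out of 63862 entries listed in the passage 2 and gland libraries. Of these entries, 52636 have an Ensembl identifier and 11226 are assembled loci without one. Both kinds are counted as genes in the shares of all genes given below. The 3 proliferin genes were taken by name and matched by Ensembl identifier. They were chosen by the measured values of day 7 and day 14, between which *Prl2c3* differed widely, so that contrast is given as a description with no test. RNA was sequenced from lacrimal gland stem cells (LGSCs) and lacrimal glands (LGs) of C57BL/6 mice, to follow the spheres over culture time and to set them beside the gland. LGSCs were epithelial spheres grown in Matrigel from dissociated LGs of adult mice, 6 to 8 weeks old, in a serum-free medium with EGF, FGF10, Wnt3A and the small molecule Y-27632. Passage 2 spheres were sampled at day 5 (2 libraries) and at days 7, 10 and 14 (3 each), all under these same conditions. The whole gland was sampled in adults, at E17.5 and at E19.5, with 3 libraries per stage, and LGSCs of passage 10 at day 7 had 1 library. The other day 5 sample and the passage 6 and passage 20 day 7 samples were not analysed here. The labels do not say whether replicates came from separate cultures or animals, so the p-values measure only the spread between these libraries, which may be technical.

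Proliferins were found as transcripts that appear when resting mouse fibroblasts are given serum or growth factors, and they are made in large amounts by trophoblast giant cells of the placenta, where they act on blood vessels. They belong to a family of hormones and placental lactogens that has expanded in rodents into a cluster of genes on chromosome 13. A proliferin promoter is also a textbook example of a gene switched on through AP-1, the dimer of Fos and Jun proteins, and repressed by glucocorticoids. These are background facts and not results of these libraries.

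The 3 genes lay within a short stretch of chromosome 13 and have 5 exons each in their first annotated transcript. Positions are those of GENCODE M21 (GRCm38), whose identifiers and exon lengths matched the files, while the submitters' processing notes name NCBIM37. *Prl2c3* (ENSMUSG00000056457) is at chr13:12790816-12800079 on the minus strand, *Prl2c2* (ENSMUSG00000079092) at chr13:12996125-13005383 on the minus strand and *Prl2c5* (ENSMUSG00000055360) at chr13:13182715-13191923 on the plus strand. The coding sequences of *Prl2c3* and *Prl2c2* (672 bases each) were 99.6% identical, with 3 substitutions. *Prl2c5* (666 coding bases) was 96.0% identical to *Prl2c3* and 96.1% to *Prl2c2*. The 3 coding sites at which *Prl2c3* and *Prl2c2* differ are printed here for each gene, because a read can be given to the right one of these copies within the coding sequence only if it covers such a site. They are the substitutions C14T, A200C and G319T, with the *Prl2c3* base first and positions counted from 1 at the first base of the start codon, and the differing base is in capitals.
Prl2c3 coding bases 1 to 34: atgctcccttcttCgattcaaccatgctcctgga
Prl2c2 coding bases 1 to 34: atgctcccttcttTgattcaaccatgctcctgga
Prl2c5 coding bases 1 to 34: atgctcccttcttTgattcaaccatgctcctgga
Prl2c3 coding bases 180 to 220: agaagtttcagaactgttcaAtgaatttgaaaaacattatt
Prl2c2 coding bases 180 to 220: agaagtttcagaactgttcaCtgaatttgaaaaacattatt
Prl2c5 coding bases 180 to 220: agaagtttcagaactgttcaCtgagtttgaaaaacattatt
Prl2c3 coding bases 299 to 339: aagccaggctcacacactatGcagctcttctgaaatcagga
Prl2c2 coding bases 299 to 339: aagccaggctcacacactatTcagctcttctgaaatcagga
Prl2c5 coding bases 299 to 339: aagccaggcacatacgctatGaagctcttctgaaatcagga

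At the first 2 sites *Prl2c5* carries the base of *Prl2c2*, and at the last one that of *Prl2c3*. Of the distinct 150-base windows of the annotated transcripts of *Prl2c3*, 63.7% (826 of 1296) were found in no other transcript of the annotation, against 58.5% (662 of 1132) for *Prl2c2* and all 1125 for *Prl2c5*. The remaining windows were shared between *Prl2c3*, *Prl2c2* and the pseudogene *Gm7040*. How the authors' counting treated reads that match several genes is not given in the sources used here, so the split of reads between *Prl2c3* and *Prl2c2* is uncertain and their sum is given beside them.

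The promoters were compared because a proliferin promoter is known to answer to AP-1. The 250 bases before the RefSeq start are printed for *Prl2c3* (chr13:12800080-12800329, minus strand) and *Prl2c5* (chr13:13182466-13182715, plus strand), from RefSeq on GRCm38.p6. The match to TGANTCA, a loose pattern searched here for AP-1, is in capitals. N stands for any base, and the match in *Prl2c3* has A there.
Prl2c3: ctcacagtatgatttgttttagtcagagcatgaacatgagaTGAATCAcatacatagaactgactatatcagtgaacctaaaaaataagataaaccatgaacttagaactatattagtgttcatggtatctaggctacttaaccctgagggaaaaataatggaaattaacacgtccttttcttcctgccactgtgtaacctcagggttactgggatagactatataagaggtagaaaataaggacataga
Prl2c5: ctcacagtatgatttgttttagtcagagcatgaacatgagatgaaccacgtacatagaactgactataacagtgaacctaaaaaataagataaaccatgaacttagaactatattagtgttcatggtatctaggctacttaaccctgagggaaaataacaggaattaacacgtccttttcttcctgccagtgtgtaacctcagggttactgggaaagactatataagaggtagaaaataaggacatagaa

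The promoter of *Prl2c2* is not in that table. The *Prl2c3* and *Prl2c5* windows were identical in 241 of 251 aligned columns (96.0%), with 8 substitutions and 2 gap columns. TGANTCA, searched on both strands, had 1 match in the *Prl2c3* window, 209 bases before the start, and none in the *Prl2c5* window. The difference inside the match was T46C, with the *Prl2c3* base first and positions counted from 1 at the 5′ end of its window. The motif was present in 6.75% of all 250-base windows of the table (2217 of 32851) and in the windows of 7 of the 22 prolactin family genes with an entry (*Prl2c3*, *Prl3a1*, *Prl3d1*, *Prl3d2*, *Prl3d3*, *Prl7a1* and *Prl7a2*). A match is only a run of letters, and binding at it was not measured here.

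*Prl2c3* was the proliferin gene that carried nearly all of the signal listed in passage 2 LGSCs. Values are FPKM as deposited, that is, fragments scaled to the exon length of the gene and by a factor per library. That factor was not simply the size of the library. The recovered total of reads was 0.832 to 1.13 times the factor in passage 2 LGSC libraries. It was 2.67 and 2.57 times the factor in adult LG replicates 1 and 2. The 20 passage 2 and gland libraries list *Gapdh*, *Epcam*, *Krt8* and *Jund* at 0, although cells or epithelia use these genes widely, so a listed 0 or low value in them cannot be read as absence. *Prl2c3* was listed at 71.6 and 297 FPKM at day 5. At day 7 its 3 libraries held 44.5, 176 and 163 FPKM. At day 10 the values were 32.1, 72.7 and 53.1 FPKM, and at day 14 they were 11.5, 15.5 and 41.0 FPKM. The day means ran downward, from 184 ± 160 (SD, n = 2) at day 5 to 128 ± 72.7 (n = 3) at day 7, 52.6 ± 20.3 (n = 3) at day 10 and 22.7 ± 16.0 (n = 3) at day 14. A day mean that was lower at each step was found for 13.2% of the 15584 genes of the culture fit. Between libraries of the same day the highest value was 4.15 times the lowest at day 5, 3.97 times at day 7, 2.27 times at day 10 and 3.57 times at day 14, and each day overlapped with the next.

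Replicate 1 was the lowest library at each of the 4 days, and replicate 2 was the highest at days 5, 7 and 10. Its *Prl2c3* went from 71.6 at day 5 to 44.5, 32.1 and 11.5 FPKM at days 7, 10 and 14. Replicate 2 went from 297 to 176, 72.7 and 15.5 FPKM over the same days. Replicate 3, which has no day 5 library here, went from 163 at day 7 to 53.1 and 41.0 FPKM. All 8 steps between same-numbered libraries of consecutive days were thus downward, as they were for 0.988% of the genes of the fit. The days that chose the gene take part in these steps, so nothing is read from that share.

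**Figure D1:**
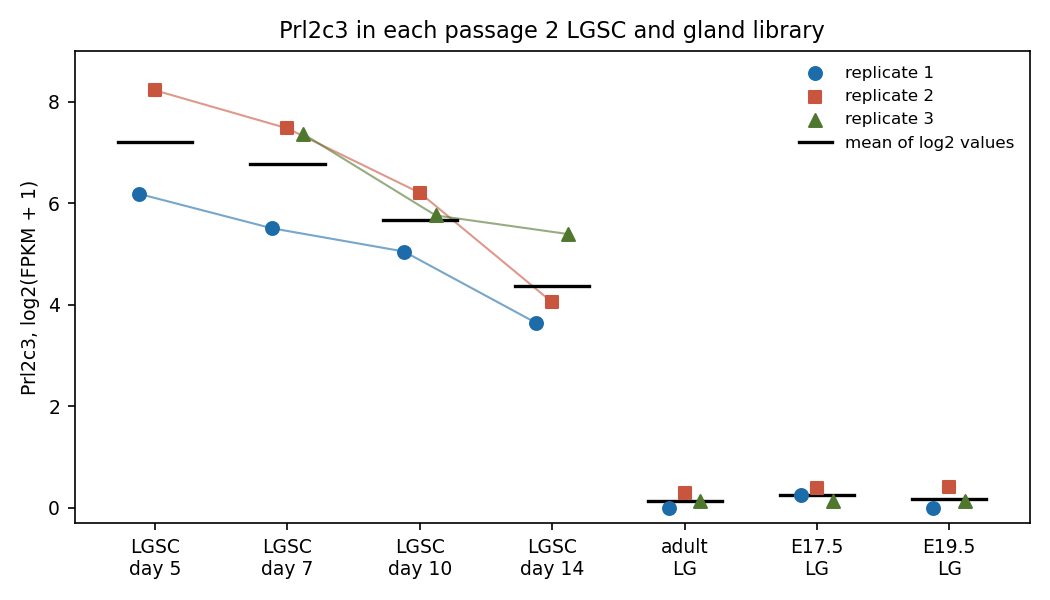
Prl2c3 as log2(FPKM + 1) in each of the 20 passage 2 LGSC and gland libraries, by group along the x axis, with a marker for each replicate number, lines joining same-numbered LGSC libraries and a black bar at the mean of the log2 values. The LGSC libraries run downward from 297 FPKM at most at day 5 to 11.5 FPKM at least at day 14, and each of the 9 gland libraries is under 0.33 FPKM.

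Day 10 against day 5 was the comparison within the culture that the choice of the genes did not use. *Prl2c3* was 3.51 times higher in the mean of day 5 than in that of day 10, and both same-numbered pairs were lower at day 10 (2.23 times in replicate 1 and 4.09 times in replicate 2), as for 26.9% of the genes of the fit. Day 5 replicate 1 (71.6 FPKM) was slightly below day 10 replicate 2 (72.7 FPKM), so the groups overlapped. With limma on log2(FPKM + 1) over all 15584 genes the difference was -1.53 ± 0.79 (SE), with an adjusted p of 0.724, so it did not pass. With the replicate number as a block the difference was -1.81 ± 0.43, with an unadjusted p of 0.00285 and an adjusted p of 0.292. In this comparison 0 genes of 15584 (0%) passed with limma, and 1090 had an unadjusted p under 0.05. limma-voom on recovered reads also called 0, on a smaller set of 11970 genes that have a GENCODE M21 exon length. The size rested on the day 5 libraries. Without day 5 replicate 1 the difference was -2.55, and without day 5 replicate 2 it was -0.51.

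From day 7 to day 14, the contrast for which the gene was picked, the mean of *Prl2c3* was 5.65 times lower at day 14. Within replicates 1, 2 and 3 it was 3.88, 11.4 and 3.98 times lower. The lowest day 7 library (44.5 FPKM) was just above the highest day 14 library (41.0 FPKM). Such a gap, with day 14 lower, was found for 9.12% of the 15744 genes that averaged 0.5 FPKM or more over these days. On log2(FPKM + 1) the difference was -2.42, the second lowest of these 15744 genes, and of those with a symbol the next above it were *Gm25772* (-2.37) and *Tubb3* (-2.37). *Mir6979* (-2.71) was the one below it.

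In terms of reads, these values rest on 139 to 2742 recovered reads of *Prl2c3* in a passage 2 library. Among 21896 protein-coding genes ranked by FPKM, the gene stood at place 849 and 235 in the day 5 libraries. At day 14 it stood at places 2668, 2255 and 1213. As RPM, recovered reads scaled to the total of the library alone, it went from 103 and 358 at day 5 to 17.6, 25.4 and 64.3 at day 14. In bulk RNA, fewer cells that make a transcript and less of it per cell cannot be told apart.

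*Prl2c2*, the near twin of *Prl2c3*, was present at about 1 FPKM in passage 2 LGSCs, on 1 to 19 reads in a library. Its values were 0.755 and 0.812 FPKM at day 5, from 7 and 6 reads. They were 1.39, 2.11 and 1.95 FPKM at day 7, 0.518, 1.31 and 1.27 FPKM at day 10, and 0.103, 0.722 and 1.32 FPKM at day 14. The mean was highest at day 7. On so few reads, and with days 7 and 14 part of the choice, no course is read from these values. Day 10 did not differ from day 5 beyond the spread (log2(FPKM + 1) difference 0.16 ± 0.31, limma adjusted p = 0.935). From day 7 to day 14 it was 2.53 times lower in the means, on 51 and 20 reads in all. Day 14 replicate 1 held 1 read.

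*Prl2c5* was at the edge of detection in passage 2 LGSCs. It had between 0 and 4 reads in a library, with 0.400 and 0.125 FPKM at day 5. At day 7 it had 0.184, 0.109 and 0.285 FPKM, at day 10 it had 0.192, 0.331 and 0.196 FPKM, and at day 14 it had 0.191, 0 and 0.204 FPKM. No day stood apart. Its mean stayed under the 0.5 FPKM that a gene needed to enter a test, so 2 of the 3 genes were tested in the culture fit.

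Of the reads given to the 3 genes, *Prl2c3* thus held 96.4% to 99.8% in each of the 11 passage 2 LGSC libraries. *Prl2c2* held 0.22% to 3.59% and *Prl2c5* 0% to 1.41%. The *Prl2c3* share of the highest library, day 5 replicate 2, was 99.75% of 2749 reads (95% Wilson interval 99.5% to 99.9%). That of the lowest, day 14 replicate 2, was 96.4% of 195 reads (92.8% to 98.2%). These intervals cover counting error only. Whether what put widely used genes at 0 in these libraries also bears on the low *Prl2c2* and *Prl2c5* values was not tested. Adding the 3 genes together left the day means nearly as for *Prl2c3* alone, at 185, 130, 53.9 and 23.5 FPKM for days 5, 7, 10 and 14.

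In the gland, proliferin RNA was listed at or near 0 at every stage. *Prl2c3* was listed at 0, 0.232 and 0.0964 FPKM in adult LG, from 0, 1 and 1 reads. E17.5 LG held 0.189, 0.305 and 0.0919 FPKM, from 2, 4 and 1 reads. E19.5 LG held 0, 0.327 and 0.0937 FPKM, from 0, 4 and 1 reads. *Prl2c2* and *Prl2c5* were listed at 0 in all 9 gland libraries. The 3 stages overlapped for *Prl2c3*, and no proliferin gene had enough FPKM to enter the tests between stages.

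LGSCs were therefore set beside the gland at day 10, which the choice of the genes did not use. *Prl2c3* in day 10 LGSCs (32.1 to 72.7 FPKM) lay far above adult LG (at most 0.232 FPKM), the tissue from which the spheres were grown. Pooled over libraries, 1772 reads stood against 2 reads. Scaled by the factors of the deposited FPKM, this was a ratio of 464 with a 95% exact counting interval of 128 to 3838. The pooled ratios here depend on those factors. With limma on log2(FPKM + 1) the difference was 5.53 ± 0.33 with an adjusted p of 1.92e-04. Against E17.5 LG the pooled ratio was 255 (124 to 636, on 7 gland reads), and the limma difference was 5.42 ± 0.29 with an adjusted p of 4.46e-05. Against E19.5 LG the ratio was 360 (154 to 1109, on 5 gland reads). These comparisons share the day 10 libraries. Even at day 14, where *Prl2c3* was lowest in culture, its smallest value (11.5 FPKM) was above the largest gland value (0.327 FPKM).

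*Prl2c2* also passed at day 10 against adult LG (adjusted p = 0.0196) and against E17.5 LG (adjusted p = 0.00697) with limma, on 28 reads in day 10 LGSCs and 0 in each gland group. It was listed at 0 there, so no fold is given. Its call against adult LG was lost without adult LG replicate 1 (adjusted p = 0.0502) and without adult LG replicate 2 (0.0639). Higher calls were made for 11.7% of 17690 genes against adult LG and for 16.2% of 17536 genes against E17.5 LG. Both genes entered these fits only through their level in LGSCs, so that 2 of 2 tested were called is not support. The FPKM of adult LG replicates 1 and 2 were scaled 2.67 and 2.57 times above their recovered reads. As RPM, *Prl2c3* was 0 to 0.12 in adult LG and 52.4 to 98.0 at day 10.

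**Figure D2:**
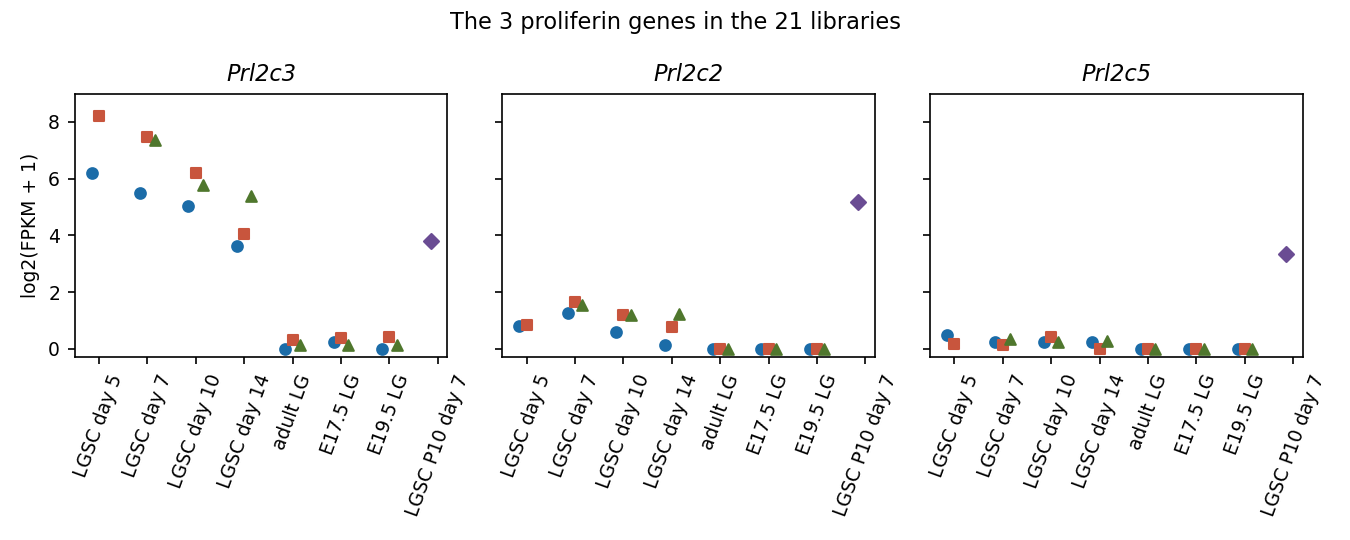
Prl2c3, Prl2c2 and Prl2c5 as log2(FPKM + 1) on a shared axis in each of the 21 libraries, with circles, squares and triangles for replicates 1, 2 and 3 and a diamond for the passage 10 library. In passage 2 LGSCs Prl2c3 stands far above the other copies, while in the passage 10 library Prl2c2 (34.9 FPKM) is above Prl2c3 (12.8 FPKM).

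The passage 10 library differed in which copy was read. It held 12.8 FPKM of *Prl2c3* (415 reads), 34.9 FPKM of *Prl2c2* (905 reads) and 9.07 FPKM of *Prl2c5* (254 reads). *Prl2c2* thus took 57.5% of the reads of the 3 genes (95% Wilson interval 55.0% to 59.9%), *Prl2c3* 26.4% (24.3% to 28.6%) and *Prl2c5* 16.1% (14.4% to 18.0%). Beside the mean of passage 2 LGSCs at the same day, *Prl2c3* was 0.100 times as high, *Prl2c2* 19.2 times and *Prl2c5* 47.2 times. This library was made against another gene list and is a single one. Of 7981 genes with at least 5 FPKM in it, 48.6% had a passage 2 day 7 mean under 0.1 of its value, against 2.20% of 4544 genes the other way round. *Gapdh*, *Epcam*, *Krt8* and *Jund*, at 0 in the 20 other libraries, were listed at 3.0, 261, 414 and 55.8 FPKM in this one. Passage, the gene list and the processing cannot be told apart here, for the split between the copies as for their levels.

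**Figure D3:**
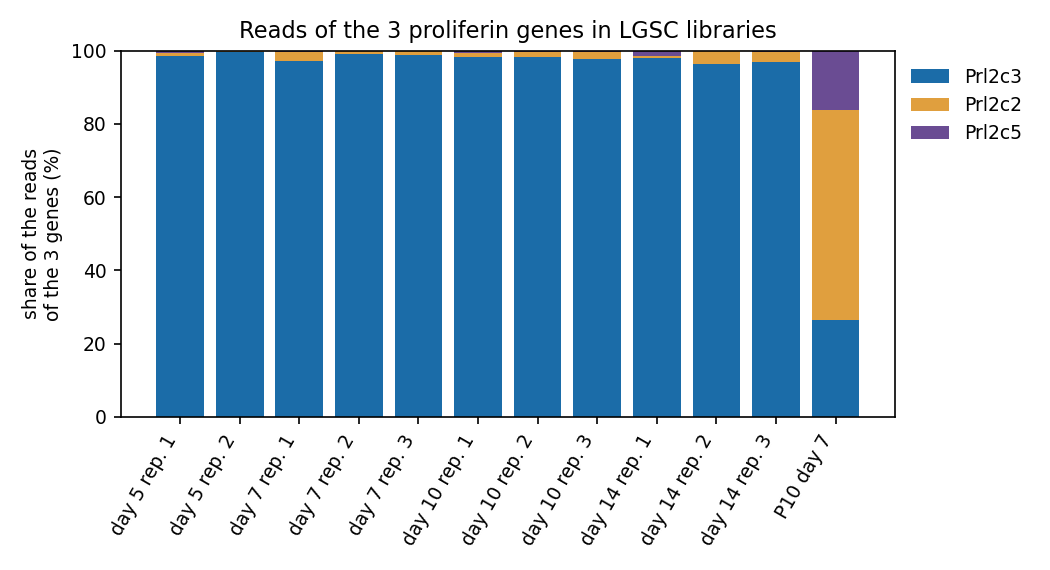
Share (%) of the reads of the 3 proliferin genes held by each, in the 11 passage 2 LGSC libraries and the passage 10 library. Prl2c3 fills at least 96.4% of each passage 2 bar and 26.4% of the passage 10 bar.

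The rest of the prolactin family was listed at or near 0, which carries the same limit as the listed 0 of *Gapdh*. Of 27 family symbols 26 were in the files (*Prl2c4* is a synonym of *Prl2c3* in RefSeq). Of the 23 family genes besides the proliferins, 13 had a read in some passage 2 LGSC library, 5 in some gland library and 7 in none of the 20. Only *Prl6a1*, *Prl8a9*, *Prl2a1* and *Prl8a6* reached 0.5 FPKM in any of these libraries. *Prl6a1*, a placental member, was listed at 0.203 and 1.14 FPKM at day 5 and at 0.652, 0.221 and 1.93 FPKM at day 7. It was listed at 2.34, 0.896 and 3.89 FPKM at day 10 and at 3.68, 0.970 and 3.22 FPKM at day 14. Its day means went up while those of *Prl2c3* went down, and day 10 against day 5 did not pass (difference 0.97 ± 0.54, limma adjusted p = 0.729). At day 10 it was higher than in adult LG (limma adjusted p = 0.0174) and than in E17.5 LG (adjusted p = 0.0102). It entered those fits only through its level in LGSCs, so these calls are not support.

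*Prl8a9*, another placental member, was listed at 0 in replicate 1 at all 4 days. Replicate 2 held 3.13, 1.22, 0.138 and 0 FPKM at days 5, 7, 10 and 14. Replicate 3 held 0.474, 0.245 and 1.41 FPKM at days 7, 10 and 14. *Prl2a1* was also listed at 0 in replicate 1 at all 4 days and reached 0.834 FPKM at most, on 5 reads. In the day 10 against day 5 fit 4 family genes were tested (*Prl2c3*, *Prl2c2*, *Prl6a1* and *Prl8a9*). None passed with limma, and none had an unadjusted p under 0.05 in that fit. Their median difference was -0.35, beside -0.0037 for all genes.

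The genes next to the proliferins did not share the level of *Prl2c3*. The 4 nearest protein-coding genes on each side were *Heatr1*, *Lgals8*, *Edaradd* and *Ero1lb* before the group and *Gpr137b*, *Nid1*, *Lyst* and *Gng4* after it. Day means ran downward at each step for *Lgals8*, *Gng4* and *Gpr137b*, as for 13.2% of the genes of the culture fit. *Lgals8* went from 0.886 to 0.523 FPKM and *Gng4*, which was too low for that fit, from 0.468 to 0.101 FPKM. In the gland their group means were 0.329 to 0.738 and 0.286 to 0.415 FPKM. Among these, *Gpr137b*, which encodes a lysosomal membrane protein and lies nearest after *Prl2c5*, had the lowest group means in the gland. Its means were 1.65, 1.61, 1.11 and 0.494 FPKM at days 5, 7, 10 and 14, and at most 0.0470 FPKM in a gland group. Day 10 did not differ from day 5 (difference -0.29 ± 0.27, limma adjusted p = 0.844). Day 10 against adult LG gave 1.00 ± 0.20 (adjusted p = 0.0111), and it entered that fit only through its level in LGSCs, so this call is not support. *Heatr1*, a ribosome biogenesis factor, had means of 11.8 to 20.5 FPKM in LGSCs and 8.98 to 12.2 FPKM in the gland. Of the 8 neighbours 5 were tested at day 10 against adult LG, where 1 was higher and 1 lower, beside 11.7% and 18.6% of all genes.

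The genes whose pattern over the 11 passage 2 LGSC libraries was most like that of *Prl2c3* were found by Pearson's r on log2(FPKM + 1), among 9154 genes with a symbol that averaged 1 FPKM or more. They were *Ddias* (r = 0.939), *Cav1* (0.938), *Gfra2* (0.938), *Itsn1* (0.924), *Gm9892* (0.923), *Ulbp1* (0.921), *Chsy1* (0.920) and *Eprs* (0.914). *Prl2c2* stood at place 1253 (r = 0.642). These r describe 11 libraries that share culture days and replicate numbers, and they have no test. *Cav1*, the main protein of caveolae, had means of 39.4, 32.4, 21.1 and 17.1 FPKM at days 5, 7, 10 and 14. *Gfra2*, the co-receptor of neurturin, had 6.42, 5.72, 2.72 and 1.07 FPKM. *Ddias*, a suppressor of apoptosis after DNA damage, had 22.7, 19.4, 16.0 and 11.1 FPKM. By day 14 *Gfra2* was at 16.7% and *Eprs* at 70.3% of its day 5 mean, against 12.3% for *Prl2c3*.

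In the gland these genes were not all near 0. *Gfra2* was at 10.9 and 16.5 FPKM and *Cav1* at 23.2 and 45.9 FPKM in E17.5 and E19.5 LG, where *Prl2c3* was near 0. At day 10 against E17.5 LG, 1 of the 8 was higher and 4 were lower with limma, beside 16.2% and 27.6% of all genes. Against adult LG 5 of the 8 were higher and 0 lower, beside 11.7% and 18.6% of all genes. With FPKM scaled to recovered reads 8 were higher, beside 4844 of 16463 genes. The 8 were picked by level and pattern in LGSC libraries that include day 10, so these counts are not support.

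**Figure D4:**
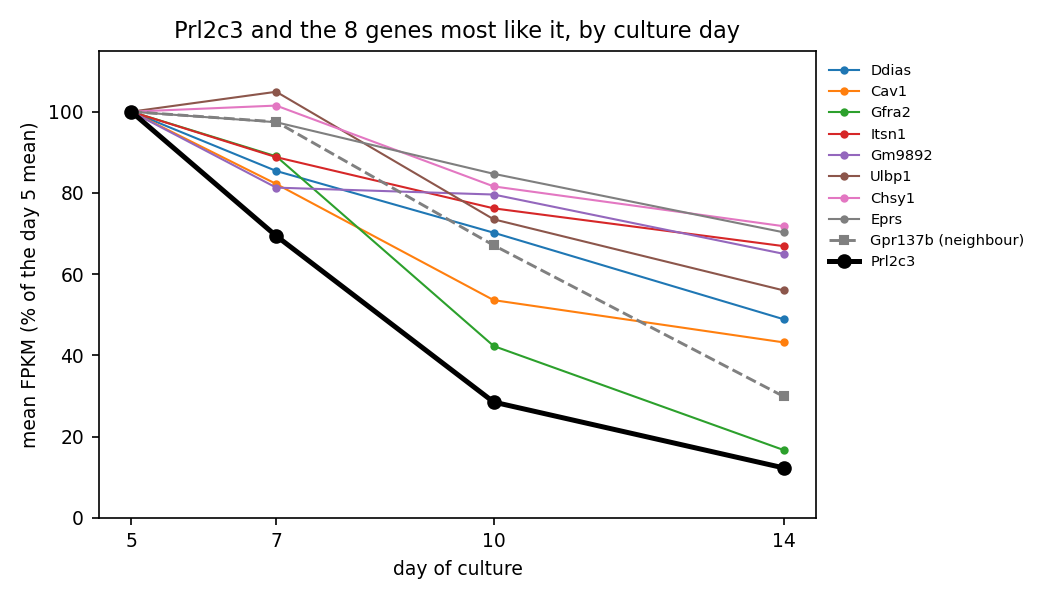
Mean FPKM at each culture day as a percent of the day 5 mean, for Prl2c3 (thick black line), the 8 genes most like it and the neighbour Gpr137b (dashed). Prl2c3 is at 28.5% at day 10 and 12.3% at day 14, and Gfra2 comes nearest with 42.3% and 16.7%.

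AP-1 and immediate early genes were looked at because proliferin is known to answer to them. Of 12 such genes, *Jund* and *Atf3* were listed at 0 in all 20 libraries. *Fosl1*, a Fos family subunit of AP-1, went from a mean of 19.46 FPKM at day 5 to 59.3 at day 7. It was at 53.3 and 48.7 FPKM at days 10 and 14. The Jun family gene *Junb* had means of 295, 180, 232 and 252 FPKM at days 5, 7, 10 and 14. *Jun* had 21.1, 15.7, 22.0 and 33.1 FPKM. AP-1 activity was not measured, and a link of these levels to *Prl2c3* was not tested. Day 10 against day 5 gave 1.10 ± 0.55 for *Fosl1* (limma adjusted p = 0.719), and 0 of 9 tested genes of the list passed. At day 10 *Fosl1* was higher than in adult LG (means 53.3 and 4.72 FPKM, limma adjusted p = 0.0191) and than in E17.5 LG (4.63 FPKM, adjusted p = 0.00622). *Egr1*, an immediate early transcription factor, was lower at day 10 than in adult LG (means 9.35 and 135 FPKM, adjusted p = 0.00994). In all, 1 of 10 tested genes was higher and 3 were lower against adult LG, beside 11.7% and 18.6% of all genes. Scaled to recovered reads, 2 were higher and 1 was lower, and the median of all genes moved from -0.07 to 0.60. The median of the 10 was -0.37, beside -0.07 for all genes.

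Of 3 receptor genes, *M6pr* had the highest level in passage 2 LGSCs. *Igf2r*, the mannose 6-phosphate receptor that proliferin is known to bind on endothelial cells, had group means of 0.0253 to 0.120 FPKM in passage 2 LGSCs and 0.155 to 0.445 FPKM in the gland. It was listed at 18.98 FPKM in the passage 10 library, so its low values in the others are uncertain. *M6pr*, the smaller mannose 6-phosphate receptor, had 3.27 to 5.99 FPKM in LGSCs and 2.81 to 5.20 FPKM in the gland. *Prlr*, the receptor of prolactin, had 1.72 FPKM in adult LG and 0.154 to 0.553 FPKM in LGSCs. It was lower in E17.5 LG (0.108 FPKM, limma adjusted p = 3.24e-05) and in E19.5 LG (0.0755 FPKM, adjusted p = 3.24e-05) than in adult LG. Lower calls were made for 24.9% and 23.9% of 18578 genes in these comparisons, which share the adult LG libraries. The split depended on the scale: 4634 and 4440 genes were lower and 5405 and 5637 higher as deposited, while scaled to recovered reads 1913 and 1842 of 17408 were lower and 8443 and 8053 higher. *Prlr* then fell below the filter and was not tested, and with limma-voom on recovered reads it was lower in both (adjusted p = 5.40e-04 and 2.53e-04). Day 10 LGSCs against adult LG did not pass for *Prlr* (adjusted p = 0.0647).

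Because proliferins mark trophoblast and activated fibroblasts, markers of these and other cell types were read in the same libraries. Of 18 trophoblast markers, 13 to 15 were listed at 0 throughout a passage 2 LGSC day. The defining *Tpbpa*, *Tpbpb* and *Ctsq* were among those at 0 at all 4 days. *Syna* (day means of 0.836 to 1.00 FPKM) and *Psg17* (0.457 to 0.696 FPKM) were above 0 in all 11 LGSC libraries. In adult LG these had means of 0.0431 and 4.59 FPKM. The summed list was 0.979 to 2.27 FPKM in an LGSC library. It was 2.37 to 6.56 FPKM in adult LG and 3.99 to 5.71 FPKM in the embryonic glands. The 11 fibroblast markers summed to 0.633 to 5.64 FPKM in an LGSC library, with *Col3a1* at 0.120 FPKM at most in the mean of a day. *Pdgfrb* was at 0 at all 4 days, but it was also at 0.0626 FPKM at most in a gland library. *Twist1* (day means of 0.396 to 1.64 FPKM) and *Col1a1* (0.467 to 0.588 FPKM) were above 0 in all 11 LGSC libraries. In adult LG these had means of 14.3 and 48.5 FPKM. In the gland the 11 markers summed to 184 to 368 FPKM in adult LG and 4922 to 5903 FPKM in the embryonic glands. Among the LGSC days the summed fibroblast list was highest at day 14 (2.71 to 5.64 FPKM), where *Twist1* had a mean of 1.64 FPKM.

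Endothelial (4 genes) and leukocyte (5 genes) lists summed to at most 0.255 and 0.209 FPKM in an LGSC library, against at least 34.8 and 74.9 FPKM in a gland library. Epithelial markers summed to 2850 to 6551 FPKM in passage 2 LGSCs, led by *Krt17*, a basal keratin (means of 2557 to 4676 FPKM), with *Krt18*, a keratin of simple epithelia (424 to 1009 FPKM), and *Cdh1*, E-cadherin (607 to 663 FPKM), next. Of the progenitor markers, *Krt14* had 5.40 to 11.7 FPKM, *Krt5* 1.02 to 3.43 FPKM and *Trp63* 0.0947 to 0.335 FPKM in the mean of a day, and *Epcam* and *Krt8* were listed at 0. The passage 10 library listed *Krt14*, *Krt5* and *Trp63* at 7065, 4931 and 42.9 FPKM, so the low values of these markers in passage 2 are uncertain. The lacrimal secretory list was led in adult LG by *Mucl2*, *Scgb2b2* and *Pip* (829 FPKM), and it was highest there. The part of any of these cell types in the *Prl2c3* values was not tested.

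**Figure D5:**
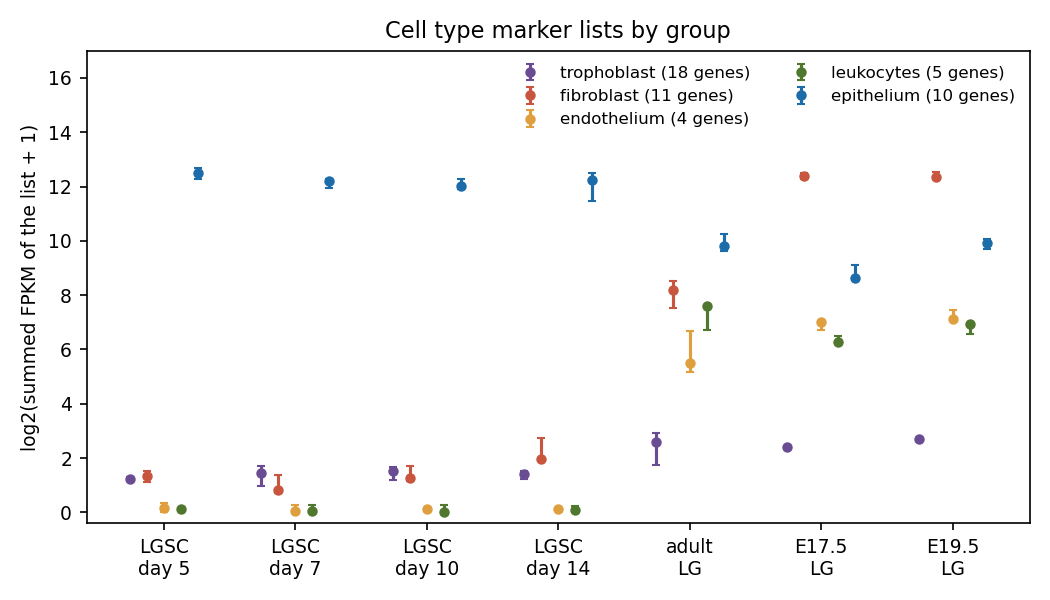
Summed FPKM of 5 marker lists as log2(sum + 1) for each passage 2 LGSC day and gland stage, with the median library as a point and the lowest and highest library as error bars. In LGSCs the trophoblast, fibroblast, endothelium and leukocyte lists stay at or under 5.64 FPKM while the epithelium list is at 2850 FPKM or more.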

How the data were processed

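RNA from LGSCs and LGs was made into NEBNext Ultra libraries and sequenced as paired-end reads by the authors. The submitters' processing notes name CASAVA 1.8, HISAT2 2.0.5, featureCounts 1.5.0-p3 and the build NCBIM37. The authors deposited 1 table per library of FPKM values per gene. Of 24 samples 21 were analysed here, without the other day 5 sample and the passage 6 and passage 20 day 7 samples. Dividing FPKM by the value of 1 read (GENCODE M21 exon length and a scale per library) gave whole reads (to 0.01, among values of at most 1000 reads) in 92.6% to 93.6% of genes of the 20 passage 2 and gland libraries. Recovered totals were 6434711 to 9257981 reads there and 25181779 in the passage 10 library. In most of the 20 libraries a gene of the length of a proliferin gene at 1 FPKM rests on about 10 reads. Low values thus carry large counting error. For *Prl2c3* 1 read is 0.305 and 0.232 FPKM in adult LG replicates 1 and 2, so this error is larger there. In the passage 10 library 1 read is 0.0309 FPKM.

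Tests used limma 3.58.1 in R 4.3.3 (trend, Benjamini-Hochberg over all genes, threshold 0.05) on log2(FPKM + 1) for genes that averaged 0.5 FPKM or more in the fit, which understates changes of low genes. The 11 passage 2 libraries shared a fit, as did the 9 gland libraries. Day 10 against adult LG and against E17.5 LG used those groups alone. Same-numbered culture libraries deviated together from their day means (15 pairs, r = 0.26 to 0.72), so their numbers were taken as pairs in a blocked fit. Different-numbered pairs (30 pairs) had r = -0.61 to 0.44, positive between replicates 1 and 3 and negative with replicate 2. The numbers thus mainly set replicate 2 apart. The scripts were tested on simulated data. The alternatives were a pseudocount of 0.1, no filter, scaling to recovered reads, limma-voom, the block, the compared groups alone, and each library left out. Tables and plots came from Python 3.11.15, pandas 2.3.3 and matplotlib 3.10.9.

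The members, gene lists and tests were chosen with earlier results of these data known. Named were the 3 proliferin genes, detected genes of the prolactin family, the 4 nearest protein-coding genes on each side, the 8 genes most like *Prl2c3*, and listed genes by count with the most abundant as examples. *Fosl1*, *Egr1*, *Tpbpa*, *Syna*, *Pdgfrb*, *Twist1* and other examples and markers were named after their values were seen.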

Additional observations from a re-analysis of the deposited data

Results flagged for a closer look

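The passage 10 library entered no comparison, and all 3 proliferin genes were above the limit of 3 reads in it. *Prl2c3* was listed at 12.8 FPKM, *Prl2c2* at 34.9 FPKM and *Prl2c5* at 9.07 FPKM. *Prl2c2* and *Prl2c5* were higher there than in each of the 20 other libraries. *Gpr137b*, the nearest gene after *Prl2c5*, was at 36.3 FPKM there, 22.6 times its passage 2 day 7 mean. *Prl6a1* had 1 read there. No group holds 4 or more libraries, so no library was tested as standing apart from its group.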

How the results depend on the processing

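The day 10 against day 5 count of 0 genes became 1 with a pseudocount of 0.1 and 10 without the filter, and was 0 to 3 when libraries were left out (3 without day 5 replicate 1, 1 without day 7 replicate 2). In that comparison *Prl2c3* ran from -2.55 to -0.51 (adjusted p 0.394 to 1) when libraries were left out, and *Prl2c2* from 0.06 to 0.36. The E19.5 against E17.5 LG count of 323 became 162 with a pseudocount of 0.1, 186 when scaled to recovered reads, 40 with limma-voom, 100 with the replicate block, 2144 with those groups alone, and 50 to 1736 when libraries were left out. It is used for no statement here. The counts against adult LG were 8428 to 11669 for E17.5 LG and 8388 to 11701 for E19.5 LG when libraries were left out. Day 10 LGSCs gave 2910 to 6872 calls against adult LG (3295 without day 10 replicate 1, 2910 without day 10 replicate 3, 3163 without adult LG replicate 2) and 5466 to 9077 against E17.5 LG. Scaling to recovered reads moved the day 10 against adult LG calls from 2065 higher and 3289 lower to 4844 higher and 1560 lower.

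*Prl2c3* kept its direction and call at day 10 against adult LG and E17.5 LG under each alternative that was run. It entered these fits only through its level in LGSCs, so this is not support. The differences were 8.06 and 7.47 with a pseudocount of 0.1 and 9.10 and 7.89 with limma-voom, beside 5.53 and 5.42 as reported. When libraries were left out they were 5.26 to 5.84 against adult LG and 5.15 to 5.73 against E17.5 LG. *Prl2c2* was 1.00 to 1.20 in each of these comparisons in 4 of the 6 fits with a library left out, and without day 10 replicate 2 or 3 it fell below the filter and was not tested. Replicate numbers of gland libraries are shared numbers only (9 same-numbered pairs, r = -0.08 to 0.07). With the replicate block the *Prl2c2* difference against adult LG stayed 1.00 with an adjusted p of 0.0534, and the block changed no other call of *Prl2c2* or *Prl2c3*. From day 7 to day 14 the *Prl2c3* difference was -3.06 to -2.06 when libraries were left out and -2.40 for the sum of the 3 genes. *Prl2c2* went from -0.77 to -1.61 with a pseudocount of 0.1 and was -1.02 to -0.48 when libraries were left out. *Prl2c5* went from -0.08 to -0.45 with that pseudocount and was -0.13 to 0.009 when libraries were left out, with the sign turned without day 14 replicate 2. The cause of these shifts was not tested. Depth limits *Prl2c2*, *Prl2c5* and the gland values, which rest on single reads.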

Other observations

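Receptors of the growth factors in the medium were led in passage 2 LGSCs by the Wnt receptors *Fzd1*, *Fzd2* and *Fzd7*. *Fzd1* had means of 65.4 to 112 FPKM over the passage 2 days and 25.98 FPKM in adult LG. *Fzd2* had 104 FPKM at day 5 and 38.4 to 49.2 FPKM at the later days. Of 12 such receptors 6 were tested at day 10 against adult LG, where 3 were higher and 0 lower with limma, beside 11.7% and 18.6% of all genes. In the day 10 against day 5 fit 0 of 6 passed, with 1 at an unadjusted p under 0.05. *Egfr* was at 0.292 to 0.396 FPKM and *Fgfr2*, the receptor of FGF10, at 0.145 to 0.295 FPKM in the mean of a passage 2 day. The passage 10 library had another order, with *Fzd6* at 57.1, *Erbb3* at 29.1, *Fzd7* at 27.4, *Egfr* at 21.5, *Fzd1* at 12.3, *Fzd2* at 6.06 and *Fgfr2* at 5.79 FPKM. *Erbb3* was listed at 0 in the 20 other libraries, so low values there are uncertain.

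*Prlr* also kept an order by replicate number, and the share of all genes with such an order was not counted. Over the genes of the culture fit, replicate 2 libraries deviated against those of replicates 1 and 3 (r = -0.606 to -0.135). The order is thus not read as particular to *Prlr*. Replicate 2 held 0.0865, 0.0750, 0.0762 and 0.0952 FPKM at days 5, 7, 10 and 14, the lowest library of each day, while the other LGSC libraries held 0.222 to 1.20 FPKM. *Prl2c3* was highest in replicate 2 at days 5, 7 and 10.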
